A study of Homo sapiens with 3 samples.

Results

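The kinesin motor genes of the human leukaemia line MV-4-11 were followed through RNA-seq of 3 libraries. Members were the rows of the expression table whose symbol follows the kinesin pattern, KIF or KIFC with a number and at most 1 letter from A to C. That rule found 42 of the 20332 genes in the table, and 30 of them reached a mean of 1 CPM, counts per 1000000 scaled counts, over the libraries. MV-4-11 was grown from blasts of a leukaemia with B-cell and myelomonocytic features, and all 3 groups were this line with the genotype given as wild type, grown in IMDM with serum.

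The control was untreated and cultured for 1 day, and the others were treated over the same time with FL-Fc-DM1, at a dose of 0.5 nM or of 1.5 nM. The name reads as a fusion of the ligand of the receptor FLT3 with an Fc domain, loaded with DM1, a maytansine-type poison of tubulin that stops microtubules from growing. The comparison asks how the transcriptome of the treated cells differs from that of untreated cells. Each group had 1 library, so no difference has a replicate check, no test was possible, and every ratio compares libraries rather than conditions. Brackets hold exact 95% intervals (Clopper-Pearson) of the ratio of 2 counts, which cover counting error only. Both dose comparisons share the control library. The table numbers its libraries 0, 1 and 2 without printing the doses, and these were read as untreated, 0.5 nM and 1.5 nM. In bulk RNA, fewer cells in a stage of the cell cycle and less RNA per cell cannot be told apart.

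Kinesins are ATP-driven motors that move along microtubules or take them apart at their ends. Mitotic kinesins push the spindle poles apart, move chromosomes and build the central spindle for cell division, and their transcripts accumulate in cells that approach mitosis. Transport kinesins carry vesicles, organelles and ciliary cargo, and are transcribed through the whole cell cycle. Blood cells divide fast when malignant, and several mitotic kinesins have been studied as drug targets in leukaemia.

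After rounding, the estimated counts summed to 22329955 for the control, to 16427203 for 0.5 nM and to 16864853 for 1.5 nM. Markers of the labelled line were present, with the pan-leukocyte gene PTPRC at 138 CPM in the control, 179.7 CPM at 0.5 nM and 172 CPM at 1.5 nM and the myeloid transcription factor gene SPI1 at 101 CPM in the control, 97.8 CPM at 0.5 nM and 115 CPM at 1.5 nM. The monocyte marker CD14 and the B-cell gene CD79A had 6 counts or fewer in every library. Of the markers of other cell types, CD3E, CD3D, HBB and EPCAM had 0 counts in each library, and PECAM1, which myeloid cells also express, made up most of their summed level of 47.0, 61.5 and 89.6 TPM. The 1.5 nM library stood apart in a group of genes that were present in the other libraries. The insulin receptor substrate gene IRS4 had 224, 204 and 0 counts in the order control, 0.5 nM and 1.5 nM, AMOT 157, 120 and 25 counts, PLS3 278, 198 and 75 counts, DSP 32, 27 and 0 counts and DSG2 21, 18 and 0 counts. The part of this group in the kinesin values was not tested.

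Kinesin transcripts together made up 1032, 1088 and 1032 TPM in the control, the 0.5 nM and the 1.5 nM library, where TPM is transcripts per 1000000, a level per length. The 16 mitotic members of the rule held 79.2%, 78.5% and 78.3% of that sum. KIF5B, the heavy chain of conventional kinesin, had the highest level in the control and at 0.5 nM, with 118, 136 and 123 TPM. KIF2C, a microtubule depolymerase that corrects faulty kinetochore attachments, was next in the control and first at 1.5 nM, with 118, 120.5 and 129 TPM. The order of KIF5B and KIF2C was exchanged at 1.5 nM.

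Below them came KIF11 with 101, 100.5 and 83.2 TPM, KIF22 with 96.7, 92.3 and 85.4 TPM, KIF2A with 90.8, 91.5 and 84.7 TPM and KIFC1 with 75.6, 69.4 and 63.8 TPM. Of the 13 members with the highest TPM, all but KIF5B were mitotic in each of the 3 libraries. The most abundant transport kinesin after KIF5B was KIF1C in each library, at 18.2, 14.6 and 19.6 TPM. Within kinesin-1, KIF5B exceeded the neuronal heavy chain gene KIF5C by a TPM ratio of 187 in the control, against 318 at 0.5 nM and 240.2 at 1.5 nM, with KIF5C resting on 34, 23 and 27 counts.

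**Figure D1:**
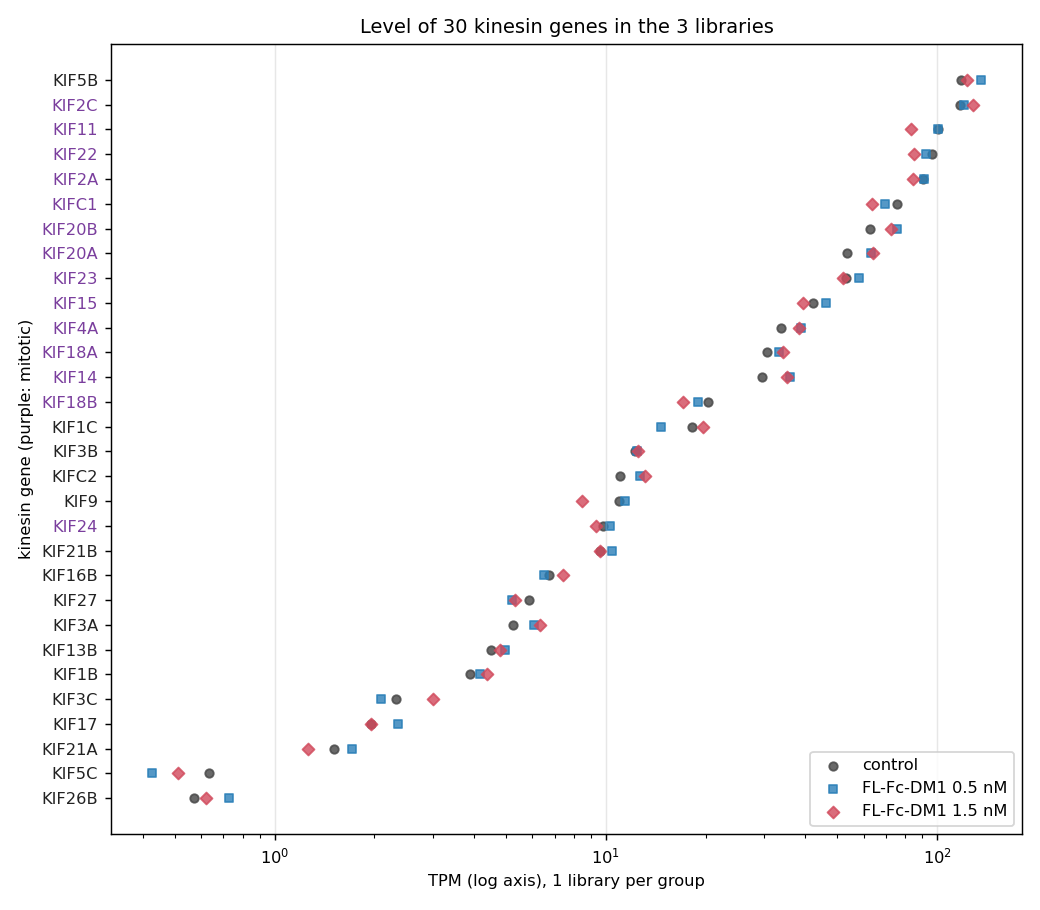
TPM of the 30 analysed kinesin genes (log axis) in the control (circles), the 0.5 nM (squares) and the 1.5 nM library (diamonds), ordered by the control; purple names are mitotic members. Mitotic members fill the upper part of the plot beside KIF5B, and the 3 marks of a gene lie close together.

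The remaining 12 members did not reach the mean of 1 CPM. KIF6, KIF12, KIF25 and KIF2B had 0 counts in every library. Where 0 is seen, the upper 95% limit of the expected count is about 3. That equals 0.136 CPM in the control, 0.182 CPM at 0.5 nM and 0.177 CPM at 1.5 nM. KIF19 had 0, 0 and 1 counts, KIF5A 1, 3 and 0 counts and KIF26A 5, 0 and 0 counts. KIF4B, an intronless copy of KIF4A, had 0, 3 and 2.01 counts, of which not all were whole, as in KIF7. In KIF13A, with 5, 7 and 0 counts, the 1.5 nM library was the one at 0, as in KIF5A. Counts this low do not place either gene with IRS4, DSP and DSG2. KIF7 had 11.08, 14 and 6 counts, KIF1A 9, 6 and 8 counts and KIFC3 10, 15 and 18 counts. No ratio was formed for these 12 genes, since so few counts leave wide counting intervals.

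Promoters were compared because mitotic and transport kinesins differ in when they are transcribed. RefSeq promoters of GRCh38.p14, from 250 bases before to 50 after each annotated start, were found for 25 of the 30 analysed members. No entry was found for KIF13B, KIF21B, KIF26B, KIF27 and KIFC2. KIF22 has 2 annotated starts, and the first is shown. The windows below run from 120 bases before to 30 after the start, on the gene's own strand. Capitals mark each match to the cell cycle genes homology region (CHR; TTTGAA or TTCGAA) and to the CCAAT box (CCAAT), on either strand, so that TTCAAA and ATTGG are matches read from the opposite strand. The first 4 belong to mitotic members that were lower than the control in both treated libraries, the next 4 to mitotic members that were higher in both, and the last to the transport kinesin KIF5B. They lie at KIF11 on chr10:92593010-92593159 (plus strand), KIFC1 on chr6:33391703-33391852 (plus strand), KIF22 on chr16:29790631-29790780 (plus strand), KIF18B on chr17:44947744-44947893 (minus strand), KIF14 on chr1:200620722-200620871 (minus strand), KIF20B on chr10:89701470-89701619 (plus strand), KIF20A on chr5:138178992-138179141 (plus strand), KIF4A on chrX:70289984-70290133 (plus strand) and KIF5B on chr10:32056396-32056545 (minus strand).
KIF11: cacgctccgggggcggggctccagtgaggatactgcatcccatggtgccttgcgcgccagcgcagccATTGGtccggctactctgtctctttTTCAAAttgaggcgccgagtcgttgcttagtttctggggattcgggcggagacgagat
KIFC1: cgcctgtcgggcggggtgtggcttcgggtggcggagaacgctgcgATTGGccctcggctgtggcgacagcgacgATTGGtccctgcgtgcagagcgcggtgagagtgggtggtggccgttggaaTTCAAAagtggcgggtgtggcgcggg
KIF22: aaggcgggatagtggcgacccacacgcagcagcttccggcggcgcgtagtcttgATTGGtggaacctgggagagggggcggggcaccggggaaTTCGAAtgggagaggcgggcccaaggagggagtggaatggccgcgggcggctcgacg
KIF18B: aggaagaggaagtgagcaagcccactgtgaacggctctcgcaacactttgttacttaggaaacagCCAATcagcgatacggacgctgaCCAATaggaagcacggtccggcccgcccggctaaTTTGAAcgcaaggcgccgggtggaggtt
KIF14: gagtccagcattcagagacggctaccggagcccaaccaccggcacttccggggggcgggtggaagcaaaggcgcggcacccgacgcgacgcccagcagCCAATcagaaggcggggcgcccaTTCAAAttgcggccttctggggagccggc
KIF20B: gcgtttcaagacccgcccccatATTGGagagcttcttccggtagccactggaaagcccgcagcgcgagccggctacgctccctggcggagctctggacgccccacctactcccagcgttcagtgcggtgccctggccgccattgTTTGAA
KIF20A: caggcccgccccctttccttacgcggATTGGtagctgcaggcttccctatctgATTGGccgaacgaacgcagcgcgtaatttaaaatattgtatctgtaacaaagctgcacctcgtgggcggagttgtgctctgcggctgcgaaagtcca
KIF4A: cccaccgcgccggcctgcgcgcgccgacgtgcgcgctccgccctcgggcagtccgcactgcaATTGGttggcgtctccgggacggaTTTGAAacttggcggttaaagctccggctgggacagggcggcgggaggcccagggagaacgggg
KIF5B: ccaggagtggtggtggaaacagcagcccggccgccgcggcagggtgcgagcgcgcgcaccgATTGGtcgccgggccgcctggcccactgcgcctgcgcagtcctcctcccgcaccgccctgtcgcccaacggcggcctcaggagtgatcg

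A CHR match was present in the promoters of 11 of the 14 analysed mitotic members and in 1 of the 11 transport and other members that have an entry. Of the genes analysed that have a promoter, 15.6% held a CHR match, and of all promoters in the reference 16.4% did. In all 11 mitotic members a match began no more than 60 bases before the start or after it, a window chosen after the positions were seen, against 5.16% of the genes analysed. The lone transport match, in KIF5B, lay 140 bases before the start. KIF20B held 2 CHR matches end to end, of which the window shows the first. KIF20A, KIF2A and KIF2C held no match in their windows.

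The CCAAT box matched in 11 of 14 mitotic and 4 of 11 transport promoters, against 43.7% of the genes analysed. An E2F motif (TTTCGCGC, TTTGGCGC or TTCCCGCC, on either strand) matched in KIF15 alone of the 25 members, against 8.88% of the genes analysed. No CHR match overlapped a CCAAT match in the printed windows. A CHR match did not go with a direction, since KIF11, KIFC1, KIF22 and KIF18B, all lower, and KIF14, KIF20B and KIF4A, all higher, each held one. These are matches of letters and do not show that a factor binds.

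**Figure D2:**
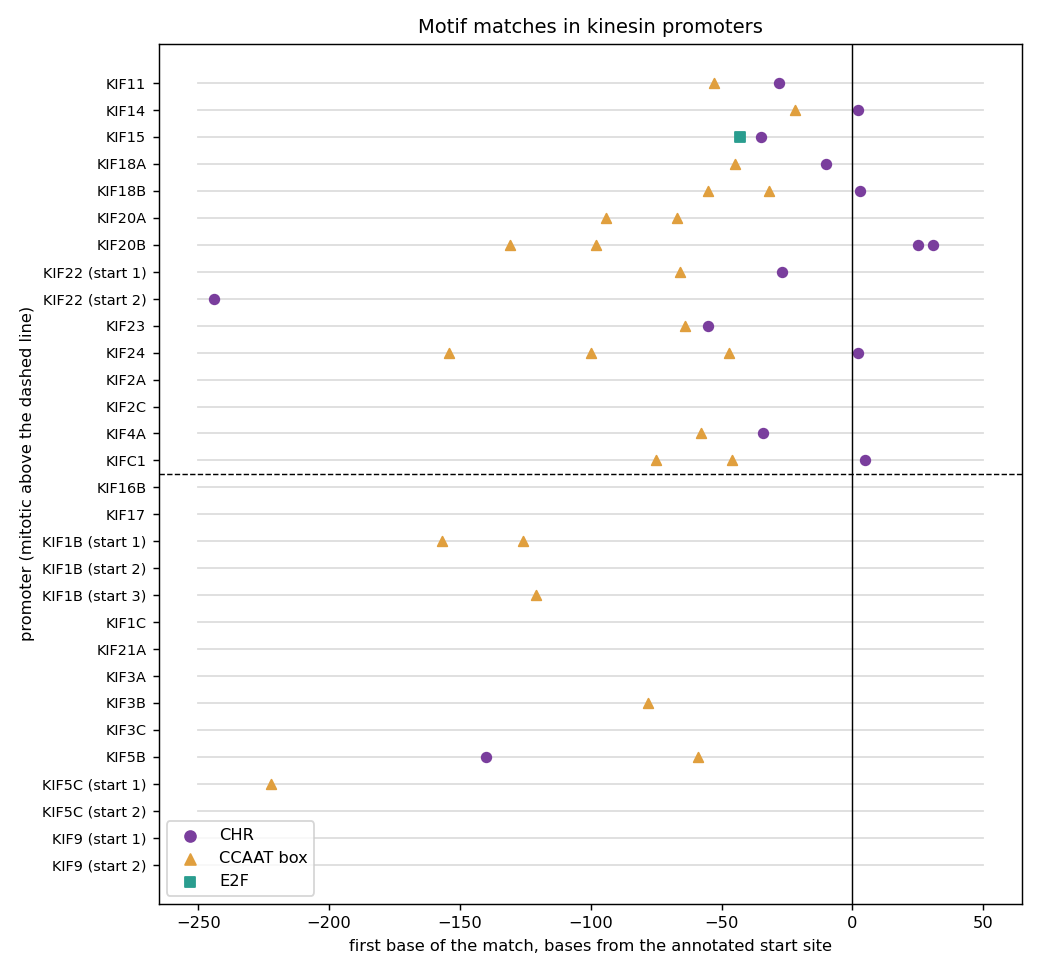
First base of each CHR (circles), CCAAT box (triangles) and E2F (squares) match in 30 promoters of 25 kinesin genes, in bases from the annotated start site; the dashed line separates mitotic members, above, from transport and other members. CHR matches gather around the start site in 11 mitotic genes, and KIF5B holds the lone match below the line.

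Most kinesin genes lay near the control level at both doses. As a measure of size, genes were counted that passed a log2 ratio of 0.32, which is 25% above the control, or -0.32. At 0.5 nM 0 of the 30 analysed members passed upwards and 0 downwards, beside 7.26% and 4.52% of the 11322 genes analysed. At 1.5 nM 2 members, KIF1B and KIF3C, passed upwards and 1, KIF11, downwards, beside 12.0% and 8.96% of all genes. No member was 2-fold different in either direction, beside 0.760% of genes at 0.5 nM and 2.04% at 1.5 nM.

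Of the 30 members, 24 had a mean of 10 CPM or more, a level at which fewer genes passed. Among all genes at that level, the shares at 0.5 nM were 2.69% higher and 1.91% lower, and 0 of the 24 members passed. At 1.5 nM the shares were 6.41% and 6.43%, and 1 of the 24 members passed in each direction. The median log2 ratio of the 30 members was 0.04 at 0.5 nM and 0.03 at 1.5 nM, against medians of 0.00 for all genes analysed at both doses. The medians of the 14 mitotic members were 0.00 and -0.08.

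**Figure D3:**
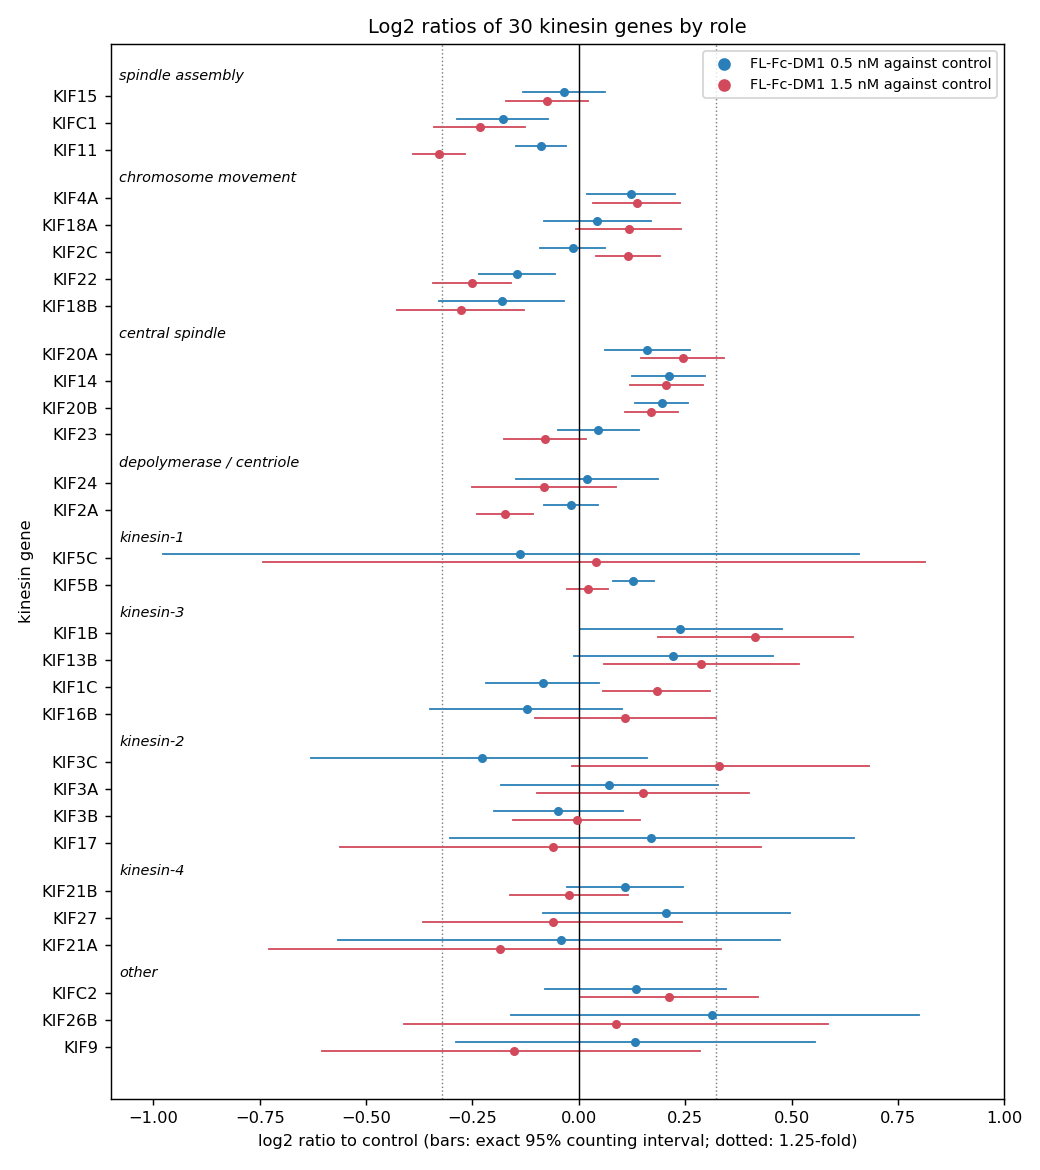
Log2 ratio to the control of the 30 analysed kinesin genes, grouped by role, for the 0.5 nM (blue) and the 1.5 nM library (red); bars are exact 95% counting intervals and dotted lines mark 0.32 in each direction. KIF20A, KIF14, KIF20B and KIF4A have both intervals above 0, and KIF11, KIFC1, KIF22 and KIF18B have both below 0.

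By counts all 3 spindle assembly motors had log2 ratios below 0 at both doses, and 1 of them, KIF11, passed -0.32, at 1.5 nM. Among all genes, 50.6% lay above 0 at 0.5 nM and 49.8% at 1.5 nM, and 8.96% passed -0.32 at 1.5 nM. KIF11, the kinesin-5 motor that slides antiparallel microtubules to separate the spindle poles, stood at 258 CPM in the control, 243 CPM at 0.5 nM and 206 CPM at 1.5 nM. Its log2 ratio was -0.09 [-0.15, -0.03] at 0.5 nM and -0.33 [-0.39, -0.27] at 1.5 nM, and -0.24 [-0.31, -0.17] between the doses, so the 1.5 nM library was the lowest. By TPM the 0.5 nM ratio was -0.01, and with the trend on GC content removed the ratio between the doses was -0.14. At 1.5 nM KIF11 no longer passed -0.32 with that trend removed (-0.30), by TPM (-0.28), with no scaling factor (-0.30) or with a minimum of 5 CPM (just under 0.32 in size). KIFC1, a minus-end-directed motor that focuses spindle poles and clusters extra centrosomes, stood at 81.2 CPM in the control, 71.7 CPM at 0.5 nM and 69.1 CPM at 1.5 nM. Its ratio was -0.18 [-0.29, -0.07] at 0.5 nM and -0.23 [-0.34, -0.13] at 1.5 nM, with both treated libraries below the control and close to each other. KIF15, which helps to hold the spindle bipolar beside KIF11, stood at 95.4 CPM in the control, 93.2 CPM at 0.5 nM and 90.6 CPM at 1.5 nM, with ratios of -0.03 [-0.13, 0.06] at 0.5 nM and -0.07 [-0.17, 0.02] at 1.5 nM. Both intervals of KIF15 include 0. By TPM its 0.5 nM ratio was 0.13, above 0 and outside its counting interval, where the median of all genes by TPM was 0.06. The TPM ratio of KIF15 to KIF11 was 0.419 in the control, against 0.461 at 0.5 nM and 0.473 at 1.5 nM.

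Of the 4 motors of the central spindle and of cytokinesis, 0 passed 0.32 at either dose. Of all genes, 7.26% passed it upwards at 0.5 nM and 12.0% at 1.5 nM. All but KIF23 had intervals above 0 at both doses. The share of all genes with such intervals is not given here. The intervals are therefore not shown to be a trait of this group. KIF20A, which brings the chromosomal passenger complex to the central spindle, stood at 81.9 CPM in the control, 91.5 CPM at 0.5 nM and 97.0 CPM at 1.5 nM. Its log2 ratio was 0.16 [0.06, 0.26] at 0.5 nM and 0.24 [0.15, 0.34] at 1.5 nM. KIF14, which recruits citron kinase to the midbody, stood at 108 CPM in the control, 125 CPM at 0.5 nM and 124 CPM at 1.5 nM, with ratios of 0.21 [0.13, 0.30] at 0.5 nM and 0.21 [0.12, 0.29] at 1.5 nM. In KIF14 the treated libraries were alike and both lay above the control. KIF20B, which acts late in cytokinesis, stood at 204 CPM in the control, 233 CPM at 0.5 nM and 229 CPM at 1.5 nM, with ratios of 0.19 [0.13, 0.26] at 0.5 nM and 0.17 [0.11, 0.23] at 1.5 nM. KIF23, the motor of the centralspindlin complex, stood at 94.2 CPM in the control, 97.2 CPM at 0.5 nM and 89.1 CPM at 1.5 nM, with ratios of 0.05 [-0.05, 0.14] at 0.5 nM and -0.08 [-0.18, 0.02] at 1.5 nM, and both intervals include 0.

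Set against each other within a library, the central spindle group was higher relative to the spindle assembly group in both treated libraries. The ratio of the summed TPM of KIF20A, KIF20B, KIF14 and KIF23 to that of KIF11, KIF15 and KIFC1 was 0.911 in the control, against 1.08 at 0.5 nM and 1.20 at 1.5 nM. The TPM ratio of KIF20A to KIF11 was 0.532 in the control, against 0.629 at 0.5 nM and 0.771 at 1.5 nM. These ratios do not depend on the scaling of the libraries. These groups of 3 and 4 genes are small, and in the deposited annotation the 12 analysed members with the term spindle, which spans both, had median log2 ratios of -0.02 at 0.5 nM and 0.02 at 1.5 nM.

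Motors that move chromosomes lay on both sides of the control. KIF22, a chromokinesin that pushes chromosome arms away from the poles, stood at 113 CPM in the control, 102 CPM at 0.5 nM and 95 CPM at 1.5 nM, with log2 ratios of -0.15 [-0.24, -0.06] at 0.5 nM and -0.25 [-0.34, -0.16] at 1.5 nM. KIF18B, which acts on the plus ends of astral microtubules, stood at 43.0 CPM in the control, 37.9 CPM at 0.5 nM and 35.4 CPM at 1.5 nM, with ratios of -0.18 [-0.33, -0.03] at 0.5 nM and -0.28 [-0.43, -0.13] at 1.5 nM. Both genes were highest in the control and lowest at 1.5 nM. KIF4A, a chromokinesin that also works with PRC1 at the central spindle, stood at 76.4 CPM in the control, 83.2 CPM at 0.5 nM and 84.0 CPM at 1.5 nM, with ratios of 0.12 [0.02, 0.23] at 0.5 nM and 0.14 [0.03, 0.24] at 1.5 nM. Its count at 1.5 nM, 1426.99, was not whole, and neither was the 2.01 of its copy KIF4B, so these genes may share reads. The part that was not whole is small beside the KIF4A count. How many reads these genes share was not tested. KIF18A, a kinesin-8 motor that damps chromosome oscillation, stood at 53.9 CPM in the control, 55.5 CPM at 0.5 nM and 58.4 CPM at 1.5 nM, with ratios of 0.04 [-0.08, 0.17] at 0.5 nM and 0.12 [-0.01, 0.24] at 1.5 nM, and both intervals include 0. The TPM ratio of KIF18A to its relative KIF18B was 1.51 in the control, against 1.75 at 0.5 nM and 2.00 at 1.5 nM.

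The depolymerases of the kinesin-13 family differed from each other. KIF2C stood at 146 CPM in the control, 145 CPM at 0.5 nM and 158 CPM at 1.5 nM, with log2 ratios of -0.01 [-0.09, 0.06] at 0.5 nM and 0.12 [0.04, 0.19] at 1.5 nM, so that the 1.5 nM library was the highest. KIF2A, which acts at spindle poles and whose counts were not whole, stood at 211 CPM in the control, 208 CPM at 0.5 nM and 187 CPM at 1.5 nM, with ratios of -0.02 [-0.08, 0.05] at 0.5 nM and -0.17 [-0.24, -0.11] at 1.5 nM. Here the 1.5 nM library was the lowest, and the TPM ratio of KIF2C to KIF2A was 1.3 in the control, against 1.32 at 0.5 nM and 1.52 at 1.5 nM. KIF24, a centriolar member that restrains cilium formation, stood at 31.1 CPM in the control, 31.5 CPM at 0.5 nM and 29.4 CPM at 1.5 nM, with ratios of 0.02 [-0.15, 0.19] at 0.5 nM and -0.08 [-0.25, 0.09] at 1.5 nM, and both intervals include 0.

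Transcript GC content differed between the mitotic members on either side of the control. Its median was 42.3% in the 4 whose interval lay above 0 at 0.5 nM and 58.2% in the 4 whose interval lay below. KIF22, KIFC1 and KIF18B had 58.9%, 57.9% and 58.4% GC in their longest transcript, while KIF20B, KIF14, KIF4A and KIF20A had 34.2%, 38.3%, 46.4% and 48.4%. KIF11, lower than the control, had 38.3%. With the trend of the ratios on GC content removed across all genes, the 0.5 nM ratio was -0.09 for KIF22, -0.12 for KIFC1, -0.12 for KIF18B and -0.16 for KIF11. It was 0.08 for KIF20B, 0.14 for KIF14, 0.11 for KIF4A and 0.17 for KIF20A. At 1.5 nM the same correction gave -0.30 for KIF11, -0.32 for KIF18B, 0.24 for KIF14 and 0.25 for KIF20A. Each of the values given kept its direction, and the change in size differed between genes. At 0.5 nM KIF20A went from 0.16 to 0.17 and KIF4A from 0.12 to 0.11. At 0.5 nM KIF20B fell below its interval of [0.13, 0.26], and KIF11 went below its interval of [-0.15, -0.03]. The 0.5 nM ratios of KIF22, KIFC1 and KIF18B shrank. Intervals were not computed again after the correction, so whether each would still exclude 0 was not tested.

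The 16 analysed transport and other kinesins had a median log2 ratio of 0.12 at 0.5 nM and 0.06 at 1.5 nM, with 10 above and 6 below 0 at each dose. Among all genes, 50.6% lay above 0 at 0.5 nM and 49.8% at 1.5 nM. Of the 16, 0 passed 0.32 at 0.5 nM and 2, KIF1B and KIF3C, passed it upwards at 1.5 nM. The shares of all genes that passed upwards were 7.26% at 0.5 nM and 12.0% at 1.5 nM. KIF5B stood at 356 CPM in the control, 389 CPM at 0.5 nM and 361 CPM at 1.5 nM, with ratios of 0.13 [0.08, 0.18] at 0.5 nM and 0.02 [-0.03, 0.07] at 1.5 nM, so that the 0.5 nM library was the highest. With the trend on GC content removed these ratios of KIF5B were 0.07 and 0.05, and -0.02 between the doses. Of its light chain genes at 1.5 nM, KLC1 had a log2 ratio of 0.01, KLC2 of 0.01 and KLC4 of 0.28. KLC2 was lower at 0.5 nM, with 94, 47 and 73 counts and a ratio of -0.57 [-1.12, -0.06].

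The 4 analysed kinesin-3 motors all lay above the control at 1.5 nM, with a median of 0.23, while 2 of them were below it at 0.5 nM. At 1.5 nM 49.8% of all genes lay above 0, and 4 genes are few. By TPM the 1.5 nM ratios were 0.17 for KIF1B, 0.09 for KIF13B, 0.11 for KIF1C and 0.14 for KIF16B. KIF1B, which carries mitochondria and vesicle precursors, stood at 14.2 CPM in the control, 16.8 CPM at 0.5 nM and 19.0 CPM at 1.5 nM, with ratios of 0.24 [0.00, 0.48] at 0.5 nM and 0.41 [0.19, 0.64] at 1.5 nM. KIF13B, a membrane traffic motor, stood at 14.8 CPM in the control, 17.3 CPM at 0.5 nM and 18.1 CPM at 1.5 nM, with ratios of 0.22 [-0.01, 0.46] at 0.5 nM and 0.29 [0.06, 0.52] at 1.5 nM. By CPM the order of the libraries followed the dose in both genes. Between the doses their intervals include 0, at [-0.06, 0.41] for KIF1B and [-0.17, 0.30] for KIF13B. By TPM KIF13B was highest at 0.5 nM, with 4.51, 4.98 and 4.80 TPM. KIF1C, a motor of Golgi and podosome traffic in macrophages, stood at 50.4 CPM in the control, 47.5 CPM at 0.5 nM and 57.2 CPM at 1.5 nM, with ratios of -0.09 [-0.22, 0.05] at 0.5 nM and 0.18 [0.06, 0.31] at 1.5 nM. KIF16B, which moves early endosomes, stood at 18.3 CPM in the control, 16.8 CPM at 0.5 nM and 19.8 CPM at 1.5 nM, with ratios of -0.12 [-0.35, 0.10] at 0.5 nM and 0.11 [-0.10, 0.32] at 1.5 nM. Both genes were lowest at 0.5 nM and highest at 1.5 nM.

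Among the kinesin-2 motors, which form the engine of ciliary transport, KIF3A stood at 13.2 CPM in the control, 13.9 CPM at 0.5 nM and 14.7 CPM at 1.5 nM and KIF3B at 38.4 CPM in the control, 37.2 CPM at 0.5 nM and 38.3 CPM at 1.5 nM. Their ratios at 1.5 nM were 0.15 [-0.10, 0.40] and 0.00 [-0.15, 0.14], and those at 0.5 nM 0.07 [-0.18, 0.33] and -0.05 [-0.20, 0.10]. All 4 intervals include 0. KIFAP3, the cargo-binding partner of KIF3A and KIF3B, stood at 16.8 CPM in the control, 20.5 CPM at 0.5 nM and 14.8 CPM at 1.5 nM, with 0.28 [0.06, 0.50] at 0.5 nM and -0.18 [-0.42, 0.05] at 1.5 nM. KIF3C had 141, 90 and 137 counts, with ratios of -0.23 [-0.63, 0.16] at 0.5 nM and 0.33 [-0.02, 0.68] at 1.5 nM, and both intervals include 0. With the GC trend removed its 1.5 nM ratio was 0.31. Between the doses its ratio was 0.56 [0.17, 0.97], which made it the 1 member of 30 that passed 0.32 between the doses. Of all genes, 8.46% passed 0.32 upwards between the doses and 7.11% downwards, and 0.972% were 2-fold different, as was no member. KIF17, a ciliary and dendritic motor, had 84, 71 and 62 counts, with ratios of 0.17 and -0.06.

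The analysed kinesin-4 members other than KIF4A lay slightly below the control at 1.5 nM, where 49.8% of all genes lay above it. KIF21B, which limits microtubule growth in neurons and T cells, stood at 44.8 CPM in the control, 48.3 CPM at 0.5 nM and 44.1 CPM at 1.5 nM, with ratios of 0.11 [-0.03, 0.25] at 0.5 nM and -0.02 [-0.16, 0.12] at 1.5 nM. KIF27, a relative of the Hedgehog pathway kinesin KIF7, stood at 9.76 CPM in the control, 11.3 CPM at 0.5 nM and 9.36 CPM at 1.5 nM, with ratios of 0.20 [-0.08, 0.50] at 0.5 nM and -0.06 [-0.37, 0.24] at 1.5 nM. The intervals of both genes include 0 at both doses, as did those of KIF21A, with 77, 56 and 52 counts. Of the other kinesins, KIFC2, whose counts were not whole, stood at 18.4 CPM in the control, 20.2 CPM at 0.5 nM and 21.4 CPM at 1.5 nM, with ratios of 0.13 [-0.08, 0.35] at 0.5 nM and 0.21 [0.01, 0.42] at 1.5 nM. KIF26B, an atypical kinesin, had 78, 73 and 64 counts and ratios of 0.31 and 0.09. KIF9, a ciliary motor with a control count that was not whole, had 107.49, 88 and 74 counts and ratios of 0.13 and -0.15. KIF5C had ratios of -0.14 [-0.98, 0.66] at 0.5 nM and 0.04 [-0.74, 0.81] at 1.5 nM, and all these intervals but that of KIFC2 at 1.5 nM include 0.

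Counts and TPM did not give the same change for every kinesin. TPM divides by a transcript length, so counts per TPM reflect the length that the authors' estimate assigned to a gene in each library. Relative to the library median, counts per TPM of KIF1B were 1.15 times the control value at 0.5 nM and 1.21 times at 1.5 nM. From the 5th to the 95th percentile, genes lay between 0.893 and 1.13 times at 1.5 nM and between 0.899 and 1.12 at 0.5 nM. The log2 ratio of KIF1B at 1.5 nM was 0.41 by counts and 0.17 by TPM, from levels of 3.88, 4.17 and 4.38 TPM. KIF13B had 1.18 times at 1.5 nM, with 0.29 by counts and 0.09 by TPM.

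At 0.5 nM KIF27 had 1.36 times the control value and KIF1C 1.23 times. The log2 ratio of KIF27 was 0.20 by counts and -0.17 by TPM, which has the other sign. KIF1C had -0.09 by counts and -0.32 by TPM, just inside the measure of size. KIF5C had 1.40 and 1.3 times, from 34, 23 and 27 counts. KIF9 had 1.18 times at 1.5 nM, with a log2 ratio of -0.15 by counts and of -0.37, past -0.32, by TPM. All these genes belong to the transport and other kinesins. KIF27 was not alone in changing sign. At 0.5 nM KIF15, a mitotic member, had -0.03 by counts and 0.13 by TPM. KIF21A had -0.04 and 0.17 at that dose, with 0.892 times the control value, just below the 5th percentile. KIF5C had 0.04 and -0.26 at 1.5 nM. Some other members with count ratios near 0 changed sign too, such as KIF2C with -0.01 and 0.04 at 0.5 nM. The mitotic members ranged from 0.932 to 1.02 times at 0.5 nM and from 0.975 to 1.05 at 1.5 nM. Which transcripts of these genes were present was not tested.

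**Figure D4:**
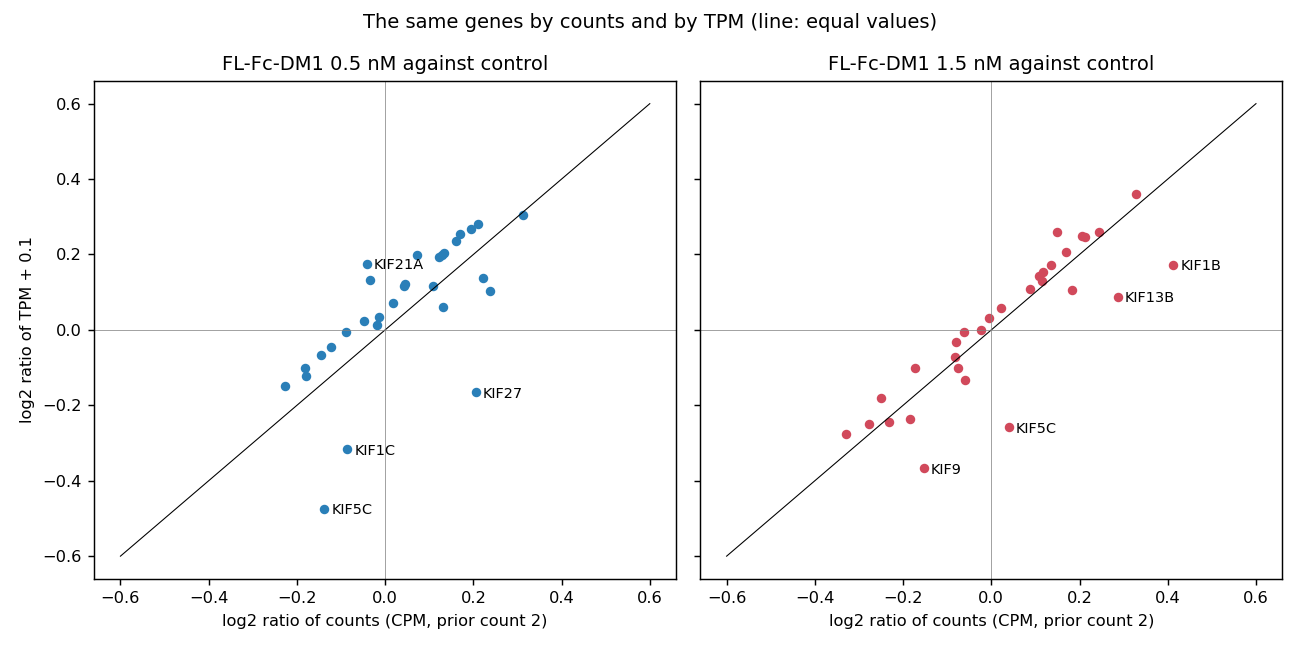
Log2 ratio to the control by counts (horizontal) and by TPM + 0.1 (vertical) for the 30 analysed kinesin genes at 0.5 nM (left) and 1.5 nM (right); the line marks equal values and the genes farthest from it are named. The TPM ratios of all genes had medians of 0.06 at 0.5 nM and 0.03 at 1.5 nM, and most points lie just above the line. KIF27, KIF1C, KIF5C, KIF9, KIF1B and KIF13B lie below it.

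Partners of the kinesins lay on both sides of the control. Among 19 analysed genes, the partners and CENPE, a kinetochore kinesin whose symbol lies outside the rule, the median log2 ratio was 0.03 at 0.5 nM and 0.00 at 1.5 nM. At 0.5 nM KLC2 alone passed 0.32, downwards, and at 1.5 nM 0 of them passed it upwards and 3 downwards. Of all genes, 4.52% passed downwards at 0.5 nM, and 12.0% passed upwards and 8.96% downwards at 1.5 nM. CENPE stood at 154 CPM in the control, 180.0 CPM at 0.5 nM and 173 CPM at 1.5 nM, with ratios of 0.23 [0.16, 0.30] at 0.5 nM and 0.17 [0.10, 0.24] at 1.5 nM. As in KIF14, both treated libraries lay above the control. RACGAP1, the other subunit of centralspindlin, stood at 155 CPM in the control, 161 CPM at 0.5 nM and 147 CPM at 1.5 nM, with ratios of 0.05 [-0.02, 0.13] at 0.5 nM and -0.08 [-0.15, 0.00] at 1.5 nM, and the TPM ratio of KIF23 to RACGAP1 was 0.481 in the control, against 0.499 at 0.5 nM and 0.475 at 1.5 nM. PRC1, the crosslinker that works with KIF4A, had 0.13 [0.06, 0.20] at 0.5 nM and 0.25 [0.18, 0.32] at 1.5 nM, from counts that were not whole.

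The partners with the lowest ratios at 1.5 nM were CEP97, INCENP and NUSAP1. CEP97, which acts with CCP110 and KIF24 at the centriole, stood at 39.8 CPM in the control, 37.7 CPM at 0.5 nM and 24.8 CPM at 1.5 nM, with ratios of -0.08 [-0.23, 0.07] at 0.5 nM and -0.68 [-0.85, -0.51] at 1.5 nM. INCENP, the scaffold of the chromosomal passenger complex that KIF20A carries, stood at 85.0 CPM in the control, 68.3 CPM at 0.5 nM and 61.4 CPM at 1.5 nM. Its ratios were -0.315 [-0.42, -0.21] at 0.5 nM, just inside the measure of size, and -0.47 [-0.58, -0.36] at 1.5 nM. NUSAP1, a spindle microtubule crosslinker with counts that were not whole, had -0.09 [-0.15, -0.03] at 0.5 nM and -0.37 [-0.43, -0.31] at 1.5 nM. The other subunits of the complex had smaller ratios at 1.5 nM, with AURKB at -0.18, CDCA8 at 0.00 and BIRC5 at 0.06, while KIF20A was at 0.24. KLC4 completes the 4 partners farthest from the control, at 0.28 [-0.09, 0.65].

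Dynein and dynactin genes, the minus-end motor and its adaptor, lay close to the control. Their 20 analysed members had medians of 0.04 and 0.04. At 1.5 nM, beside 12.0% of all genes upwards and 8.96% downwards, 1 of the 20 passed 0.32, upwards. That gene was NDE1, a dynein regulator with counts that were not whole, at 0.13 [0.00, 0.26] at 0.5 nM and 0.38 [0.26, 0.51] at 1.5 nM. DYNLT1 had 0.17, DYNLL2 -0.17 and DCTN4 0.15 at 1.5 nM. TUBB, the tubulin gene that supplies the track of these motors, stood at 2366 CPM in the control, 1824 CPM at 0.5 nM and 1604 CPM at 1.5 nM, with ratios of -0.38 [-0.40, -0.35] at 0.5 nM and -0.56 [-0.58, -0.54] at 1.5 nM.

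Cell cycle genes of G1/S lay below the control and those of G2/M on both sides of it. All 14 G1/S genes were below the control at both doses, with medians of -0.18 and -0.47, and CCNE2 had -0.92, CCNE1 -0.73, UHRF1 -0.65 and MCM4 -0.51 at 1.5 nM. The shares of all genes above 0 were 50.6% at 0.5 nM and 49.8% at 1.5 nM. Of the 14, 1 passed -0.32 at 0.5 nM and 10 did at 1.5 nM, beside 4.52% and 8.96% of all genes. The 12 G2/M genes had medians of -0.04 and 0.08. At 0.5 nM 0 of the 12 passed 0.32 in either direction, beside 7.26% of all genes upwards and 4.52% downwards. At 1.5 nM, where 12.0% of all genes passed upwards, 4 of them passed 0.32 upwards and 4 downwards, beside 0 and 1 of the 14 mitotic kinesins. CCNB1, the cyclin of mitotic entry, had 0.54, CDC20 0.49 and AURKA 0.49, while TOP2A had -0.61 and CDK1 -0.51. KIF20A and KIF14 lay on the side of CCNB1, and KIF11 and KIFC1 on the side of CDK1 and TOP2A. The share of cells in each stage was not measured, and its part in the kinesin values was not tested.

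**Figure D5:**
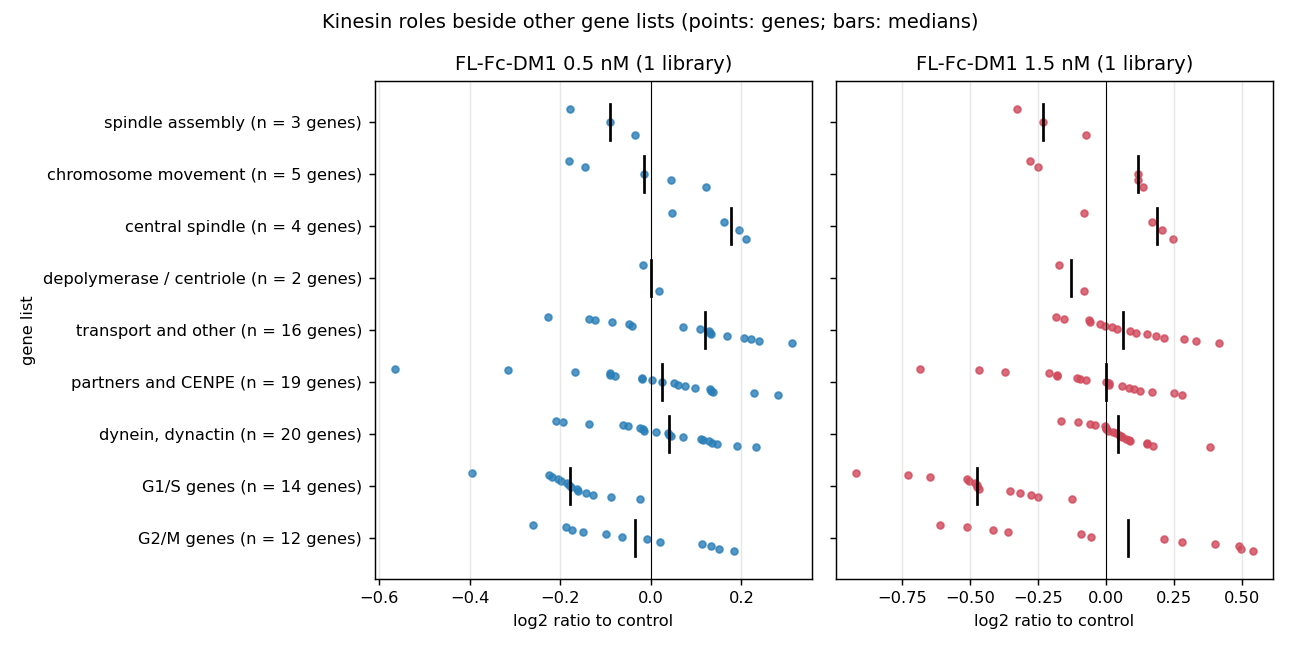
Log2 ratio to the control of single genes (points) and list medians (bars) for kinesin role groups, partners and CENPE, dynein and dynactin, and G1/S and G2/M genes, at 0.5 nM (left) and 1.5 nM (right). The kinesin groups lie near 0, all G1/S genes lie below it, and the G2/M genes spread to both sides at 1.5 nM.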

How the data were processed

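Per the labels' protocols, RNA with poly(A) tails was enriched, reverse transcribed from random primers and sequenced by Illumina. The authors deposited estimated counts without normalisation and TPM values scaled to length, and 12.0% to 12.7% of the estimated counts per library were not whole. The tools listed in the submitters' processing notes are StringTie 1.3.1, HISAT2, fastp 0.18.0, edgeR and DESeq2. What each did, and on which genome build, is not given in the sources used here.

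Estimated counts were rounded, genes with a mean of 1 CPM or more were kept (11322 of 20332), and TMM factors of 0.987 to 1.01 were applied with edgeR 4.0.16 (R 4.3.3). Log2 ratios are differences of log2 CPM with a prior count of 2. The ratios and exact intervals come from Python 3.11.15 (scipy 1.17.1, pandas 2.3.3, numpy 2.4.6 and statsmodels 0.14.6), and the steps were tested on simulated data. With 1 library per group, no p-value exists, and PCR copies are not independent molecules. Thresholds are log2 ratios of 0.32 (25% higher) and 1 (2-fold). GC content of the longest transcript came from GENCODE 29, found for 99.4% of the genes analysed.

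Each analysed member is named; those with a mean of 10 CPM or more have values in every library. Other lists give up to 4 genes with the largest ratio at 1.5 nM; CENPE, RACGAP1, CCNB1, CDK1 and TUBB are always named. Other genes were chosen after their values were seen, and some marker genes are not reported here. Members and lists were chosen with earlier results of these data known. Alternatives were DESeq2 1.42.0 size factors, no scaling, no filter, a minimum of 5 CPM, a prior count of 0.5, TPM with a pseudocount of 0.1, whole counts alone and the GC trend removed (lowess, fraction 0.3).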

Additional observations from a re-analysis of the deposited data

How the results depend on the processing

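Over the 8 alternatives the median log2 ratio of all kinesins ranged from 0.01 to 0.11 at 0.5 nM and from 0.02 to 0.12 at 1.5 nM. The mitotic median ranged from -0.02 to 0.09 and from -0.09 to -0.05, and the transport median from 0.09 to 0.15 and from 0.03 to 0.16. The highest 1.5 nM medians of all and of transport kinesins came with a minimum of 5 CPM, and the highest mitotic median at 0.5 nM came with TPM. Of 693 values of single kinesin genes, 675 stayed inside their own interval, 18 moved outside it (8 with the GC trend removed and 10 with TPM) and 0 of those past 0.32 reversed. The 78 values with whole counts alone could not move, since the scaling was unchanged. Scaling, filter and prior count shift a gene little, and 0 values moved with them. The TPM and GC alternatives gave 90 values each. Reversal was checked only for the few ratios past 0.32. Counts of members past 0.32, all small, moved more. Without the filter on low counts, 38 members gave 5 higher and 1 lower at 0.5 nM, 4 and 5 at 1.5 nM, and 2 and 4 between the doses; the added members have few counts. With TPM there were 1 lower at 0.5 nM, 1 higher at 1.5 nM, and 2 higher and 2 lower between the doses. With the GC trend removed there were 1 higher at 0.5 nM, 1 higher and 0 lower at 1.5 nM and 1 lower between the doses. With a minimum of 5 CPM there were 0 lower at 1.5 nM. With no scaling factor there were 1 higher at 0.5 nM and 0 lower at 1.5 nM. KIF11, at -0.33 at 1.5 nM, lies near the line of -0.32 and ranged from -0.34 to -0.28 over the alternatives. The cause of these moves was not tested. No paired analysis was possible because each group has 1 library. Depth limits the members with few counts, of which KIF5C had the widest interval.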
